A study of Solanum lycopersicum with 12 samples.

Results

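The 83 tomato genes described here were near background in both libraries of primary root sections without lateral roots. Their values were higher in all 10 libraries of sections that held a lateral root, from stage 1 onward. They were chosen from 34027 genes by their values. For each gene the highest of the 2 control libraries was subtracted from the lowest of the 10 libraries of stages 1 to 5, as log2 of the CPM value plus 1. CPM divides each count by the library total, per 1000000 counts. A gene was kept when this difference, called D here, was above 1 and no control library reached 3 CPM. The difference from the control is therefore what chose the genes, and it is given below as a description with no test. A total of 83 genes met the rule, fewer than its limit of 200, so none was left out for rank.

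The sections came from seedlings of cultivar M82 that carried the reporter DR5::VENUSx3-NLS, and control and staged sections shared this genotype and the growth on agar plates. Stage 1 was scored at a pair of cells with DR5 signal, stage 2 at the first periclinal division, stage 3 when the primordium crossed the endodermis, stage 4 midway in the cortex, and stage 5 at the epidermis before emergence. The control was a section of the differentiation zone with no lateral root. Each of the 6 groups had 2 libraries, which the labels number as replicates without saying whether they came from separate plants, so the p-values measure the spread between these libraries, which may be technical. The labels of stages 4 and 5 speak of lateral roots in the plural. The number of plants in a library is not given, and each section held primary root tissue around the primordium.

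Lateral roots of seed plants start inside the parent root, in many species from pericycle cells next to the xylem. Founder cells gather auxin, divide and form a primordium that pushes outward through the endodermis, the cortex and the epidermis, and the overlying cells yield or separate to let it pass. DR5 is a synthetic promoter that responds to auxin and marks founder cells and young primordia. The reference gene table used here holds no Solyc locus tags, so the genes are given by their tags and no name or role is attached to them. For the same reason the sections could not be checked against marker genes of root cell types, and the gene lists planned by function were not applied.

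Library totals ran from 1948150 counts, in stage 5 replicate 2, to 6196286 counts, in stage 1 replicate 1. The control libraries together had 6795633 counts. A count of 3, used as the floor of detection, stood for 0.722 and 1.14 CPM in the control libraries and for 1.54 CPM in the shallowest library. The intervals and the floor express the error of counting alone, since PCR copies cannot be told from separate molecules. In tissue sections a change in level can come from more cells of a type or from more RNA per cell, and these cannot be told apart.

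The genes were low in the control, but most were not absent. Of the 83, 49 had a count in both control libraries, 22 in one of them and 12 in neither. The highest control count was 12, and 45 genes had at most 3 counts in each control library. The genes can be called switched on only in the sense that they lay below 3 CPM in the control. Across all genes with a count in any library, 2370 of 25903 (9.15%) had all 10 libraries of stages 1 to 5 above both control libraries. The rule makes this true of all 83 genes, and nothing is read from it.

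Over stages 1 to 5 together, the 71 genes with a control count had CPM ratios to the control between 4.85 and 347, with a median of 16.4. At stage 1 alone the ratios of the same genes ran from 3.63 to 81.8, with a median of 9.09. The 12 genes without a control count were at least 4.67-fold to at least 50.4-fold higher over stages 1 to 5, counted against a floor of 3 counts over both control libraries (0.441 CPM). At stage 1 these bounds ran from 2.78 to 14.1. The exact 95% intervals of the ratios were wide where the control held few counts. They leave out the spread between duplicates, which was larger than counting error. The genes were chosen by this same difference from the control, so the intervals are no test of a rise.

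The summed level of the 83 genes shows the course of the set. It was 78.9 and 54.5 CPM in the control libraries, 690 and 648 CPM at stage 1, and 759 and 873 CPM at stage 2. The sum was 2005 and 1788 CPM at stage 3, 2729 and 2462 CPM at stage 4, and 2955 and 2525 CPM at stage 5. Stages 1 and 2 formed a first level, and all libraries of stages 3 to 5 lay above them. The genes Solyc02g078100, Solyc11g069280 and Solyc07g009435 gave 28.8% of the CPM summed over the staged libraries. Without these 3 genes the mean sums were 63.9 CPM in the control, 628 and 715 CPM at stages 1 and 2, and 1430, 1690 and 1740 CPM at stages 3, 4 and 5, so the same order held.

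**Figure D1:**
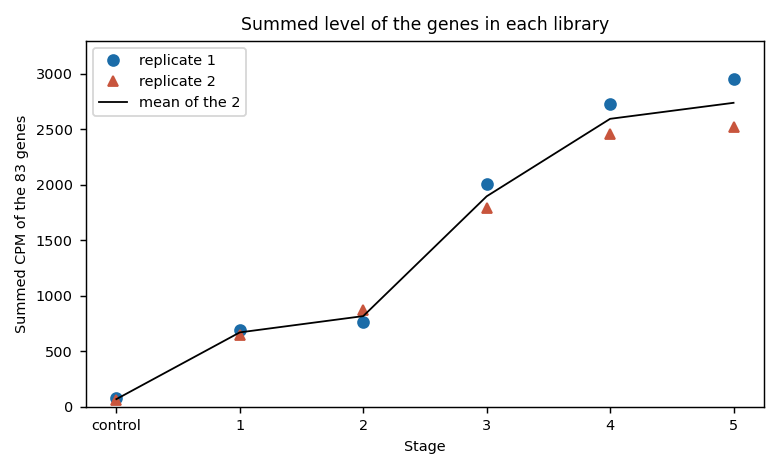
Summed CPM of the 83 genes (vertical axis, linear) in each library by stage (horizontal axis), with a symbol per replicate and a line through the mean of the 2. The sums stayed between 648 and 873 CPM at stages 1 and 2 and lay between 1788 and 2955 CPM at stages 3 to 5.

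The median level over the genes also stood higher from stage 3 on, but it was lower at stage 5 than at stage 4. The libraries of stages 4 and 5 overlapped in their sums, and also in their median levels over the genes. The median of the 83 mean levels was 0.74 CPM in the control and then, in order of stage, 6.14, 6.88, 11.9, 15.8 and 13.9 CPM. Taken gene by gene, the median log2 change of stage 5 over stage 4 was 0.08, positive for 47 genes and negative for 36. Stages 1 and 2 had the highest mean for 1 gene each, stage 3 for 13 genes, stage 4 for 28 and stage 5 for 40. As shares of the 83 these are 1.2%, 1.2%, 15.7%, 33.7% and 48.2%. Over all 18357 genes tested, the highest of the staged means fell at stages 1 to 5, in order, for 23.7%, 20.7%, 10.2%, 14.8% and 30.6%. Stage 1 had the lowest staged mean for 50 of the 83 genes, stage 2 for 23, stages 3 and 4 for 1 each and stage 5 for 8. The matching shares over all genes tested were not computed, so nothing is read from these counts. The ratio of the highest to the lowest staged mean had a median of 3 and ran from 1.43 to 56.4. It was under 2 for 11 genes and 10 or more for 9.

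**Figure D2:**
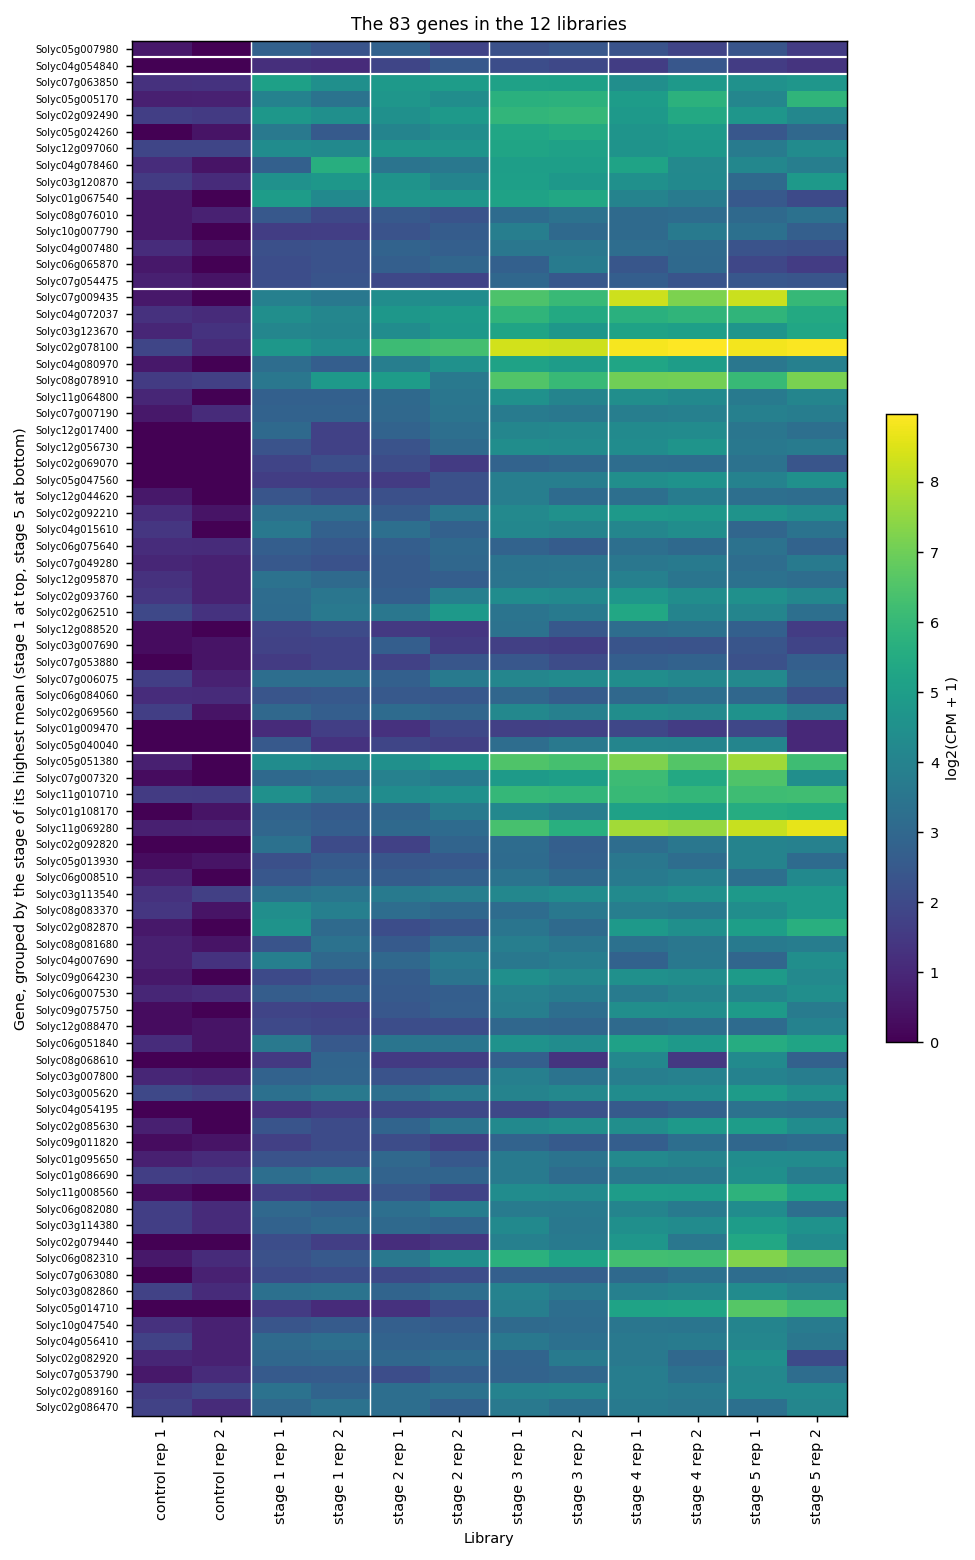
Level of each of the 83 genes (rows) in each of the 12 libraries (columns), as log2(CPM + 1) on the colour scale, with genes grouped from top to bottom by the stage of their highest mean and then ordered by D. The 40 genes with the highest mean at stage 5 form the lowest block. The control columns are dark throughout, with no value above 3 CPM.

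The 10 genes with the largest D had values between 2.24 and 3.37, and they differed in what followed stage 1. Solyc05g051380 had 0.722 and 0 CPM in the control, 19.7 and 16.8 at stage 1, 21.7 and 31.3 at stage 2, 88.5 and 79.9 at stage 3, 148 and 94.4 at stage 4, then 204 and 71.9 at stage 5. Its levels were higher again from stage 3, and its stage 5 duplicates stood apart. It had 3 and 0 counts in the control, so that its ratio over stages 1 to 5 was 167 with a 95% interval from 57.3 to 813. Its counts were partly fractional, which can happen when a read is divided among similar genes, so its level is uncertain to that extent.

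Solyc07g063850 had the second largest D and the flattest course of the 83. It had 1.44 and 1.51 CPM in the control, 32.9 and 21.3 at stage 1, 27 and 30.1 at stage 2, 34.1 and 33.5 at stage 3, 20.5 and 27 at stage 4, then 22.1 and 25.1 at stage 5. The 10 staged libraries all lay between 20.5 and 34.1 CPM, with the stage 1 duplicates spanning most of that range, and the highest staged mean was 1.43 times the lowest. Its change between stage 5 and stage 1 was −0.18 ± 0.254 (log2, SE), and no difference among the stages was called (edgeR F test, adjusted p = 0.463).

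Solyc07g009435 had 0.481 and 0 CPM in the control, 13.9 and 11.1 at stage 1, 20.1 and 19.7 at stage 2, 87.3 and 67.1 at stage 3, 313 and 145 at stage 4, then 308 and 64.2 at stage 5. The duplicates were close up to stage 3 and far apart at stages 4 and 5, replicate 1 being higher at both. Solyc07g007320 had 0.241 and 0 CPM in the control, 7.42 and 7.97 at stage 1, 14.2 and 11.8 at stage 2, 29 and 31.4 at stage 3, 69.2 and 41.5 at stage 4, then 90.5 and 20.5 at stage 5. The same separation was seen there. Solyc05g005170 separated the other way, with 0.722 and 0.757 CPM in the control, 14.7 and 9.64 at stage 1, 25.4 and 20 at stage 2, 50.9 and 53.3 at stage 3, 29.8 and 53.9 at stage 4, then 16.4 and 57.5 at stage 5. Here replicate 2 was the higher library at stages 4 and 5.

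The remaining genes of the 10 included Solyc04g072037, with 1.44 and 1.14 CPM in the control, 20.8 and 16.4 at stage 1, 25.6 and 28.7 at stage 2, 58.1 and 42.2 at stage 3, 50.2 and 57.5 at stage 4, then 57.5 and 43.1 at stage 5. Solyc03g123670 had 0.963 and 1.51 CPM in the control, 16.5 and 15.6 at stage 1, 19.4 and 26.2 at stage 2, 36.6 and 25.9 at stage 3, 35.3 and 32.4 at stage 4, then 24.3 and 39 at stage 5. Both were near their final level by stage 3, with overlapping libraries from there on. Their ratios of stage 1 to the control were 14.1 (95% interval 7.29 to 31.2) for Solyc04g072037 and 13.6 (6.78 to 32) for Solyc03g123670. Solyc11g010710 had 1.93 and 1.89 CPM in the control, 21.8 and 12.8 at stage 1, 19.7 and 21.7 at stage 2, 62.3 and 59.2 at stage 3, 65.7 and 60.5 at stage 4, then 72.2 and 72.9 at stage 5. Its levels formed a first step at stages 1 and 2 and a second one from stage 3. The counts of Solyc04g072037 and Solyc11g010710 were partly fractional as well, with the same limit.

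The rule used the staged libraries only through their lowest value, which lay at stage 1 for 46 genes and at stage 2 for 23. It lay at stage 3 for 1 gene, at stage 4 for 2 and at stage 5 for 11. The contrasts between stages compare this value too, so they are not independent of the choice of genes. The order of stages 1 to 5 was not fixed by the rule and was tested against the spread between duplicates. The freedom was not the same in both directions: a gene that came back to its control level at any stage could not be chosen, whereas nothing limited a rise after stage 1. All 83 genes passed the filter on low counts. Tests were edgeR's quasi-likelihood tests over 18357 genes, with p-values adjusted over all of them.

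Changes called among the stages were mostly upward, the direction that the rule left free. Shares of all genes tested stand beside them, but the excess of rises over falls is not read as a trait of the genes. Of the 83, 58 differed among stages 1 to 5 (F test, adjusted p under 0.05), where 36.8% of all genes tested did. Stage 5 was higher than stage 1 for 50 genes (60.2% of the 83, with 21.2% of all genes tested called higher) and lower for 1 gene (23.2% of all genes tested called lower). The median log2 change was 1.26 over the 83 genes and −0.0056 over all genes tested. Among the 50 called higher, the change ran from 0.89 to 5.84 with a median of 1.63, and it was above 2 for 20 genes. Both stage 5 libraries lay above both stage 1 libraries for 60 of the 83 genes, and below them for 2, with 33.6% and 38.3% of all genes tested doing so. A slope over stage number 1 to 5, fitted to the 10 staged libraries, rose for 58 genes and fell for 1. Of all genes tested, 25.7% had a rising slope and 26% a falling one. The median called rise was 0.44 log2 units per stage.

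**Figure D3:**
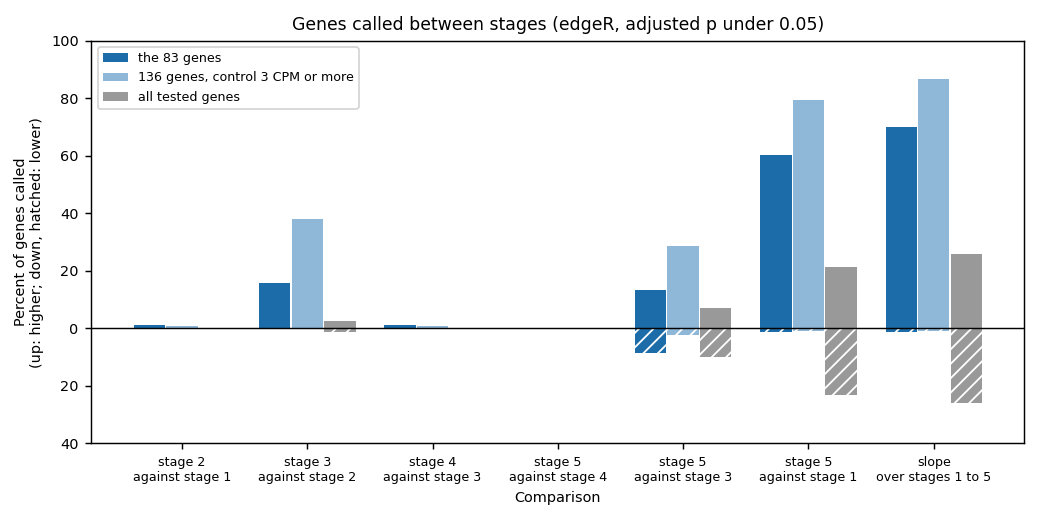
Percent of genes called in each comparison between stages (edgeR, adjusted p under 0.05), upward bars for genes called higher and hatched downward bars for genes called lower, for the 83 genes, for the 136 genes with the same rise over a control of 3 CPM or more, and for all genes tested. The tallest bars of the 83 genes are stage 5 against stage 1 (60.2% higher) and the slope (69.9% rising).

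The largest rise between stage 1 and stage 5 was that of Solyc11g069280. It had 0.722 and 0.757 CPM in the control, 6.78 and 5.48 at stage 1, 7.47 and 7.89 at stage 2, 82.1 and 50 at stage 3, 212 and 186 at stage 4, then 298 and 393 at stage 5. Its levels at stages 1 and 2 were close together (0.25 ± 0.312 for stage 2 over stage 1, log2 and SE, not called), and from stage 3 each stage lay above the one before without overlap. The log2 change of stage 5 over stage 1 was 5.84 ± 0.306 (SE; adjusted p = 2.19e-06, edgeR). It was the only one of the 83 genes called higher at stage 4 than at stage 3, by 1.61 ± 0.246 (SE; adjusted p = 0.0396, edgeR). That call was lost without any one of stage 1 replicate 1, stage 1 replicate 2, stage 2 replicate 1, stage 2 replicate 2, stage 3 replicate 2 or stage 4 replicate 1, with adjusted p-values between 0.0552 and 0.371 (edgeR).

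Solyc05g014710 had no count in the control. Its levels were 1.94 and 1.16 CPM at stage 1, 1.42 and 3.1 at stage 2, 13.2 and 8.43 at stage 3, 35.8 and 36.5 at stage 4, then 96.2 and 73.9 at stage 5. It was among the lowest of the 83 genes at stage 1 and among the highest at stage 5. The log2 change of stage 5 over stage 1 was 5.79 ± 0.396 (SE; adjusted p = 8e-06, edgeR), while its level over the control at stage 1 was at least 3.52-fold.

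Solyc06g082310 had 0.481 and 1.14 CPM in the control, 3.71 and 4.65 at stage 1, 11.2 and 20.6 at stage 2, 52.5 and 35.5 at stage 3, 75 and 74.3 at stage 4, then 153 and 99.6 at stage 5. No group of duplicates overlapped with the next, and each stage lay above the one before. Its log2 change between stages 5 and 1 was 4.95 ± 0.373 (SE; adjusted p = 8e-06, edgeR).

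Solyc02g078100 reached the highest level of the set. It had 2.65 and 1.14 CPM in the control, 25.8 and 19.8 at stage 1, 69.5 and 76.9 at stage 2, 328 and 310 at stage 3, 455 and 500 at stage 4, then 449 and 483 at stage 5. Its levels were higher at each stage up to stage 4 without overlap, and the stage 4 and stage 5 libraries overlapped. It was the only one of the 83 genes called higher at stage 2 than at stage 1, by 1.61 ± 0.214 (SE; adjusted p = 0.0126, edgeR), where 22 of all genes tested (0.12%) were. That call was lost without stage 1 replicate 1 (adjusted p = 0.0582), stage 1 replicate 2 (0.0945) or stage 2 replicate 2 (0.0926, all edgeR).

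Solyc11g008560 had 0.241 and 0 CPM in the control, 2.1 and 1.83 at stage 1, 4.09 and 2.54 at stage 2, 19.4 and 18.4 at stage 3, 30.2 and 29.2 at stage 4, then 54.8 and 33.4 at stage 5. Its stages did not overlap. Solyc02g079440 and Solyc05g047560 had no control count and lay between 1.25 and 3.66 CPM in all 4 libraries of stages 1 and 2. Solyc02g079440 then had 14.1 and 11.7 CPM at stage 3, 25 and 10.8 at stage 4, then 40.4 and 18.5 at stage 5. Solyc05g047560 had 13.2 and 13.2 CPM at stage 3, 20.3 and 22.6 at stage 4, then 14.6 and 21.6 at stage 5. Both rose at stage 3, and only the duplicates of Solyc02g079440 were far apart afterwards.

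**Figure D4:**
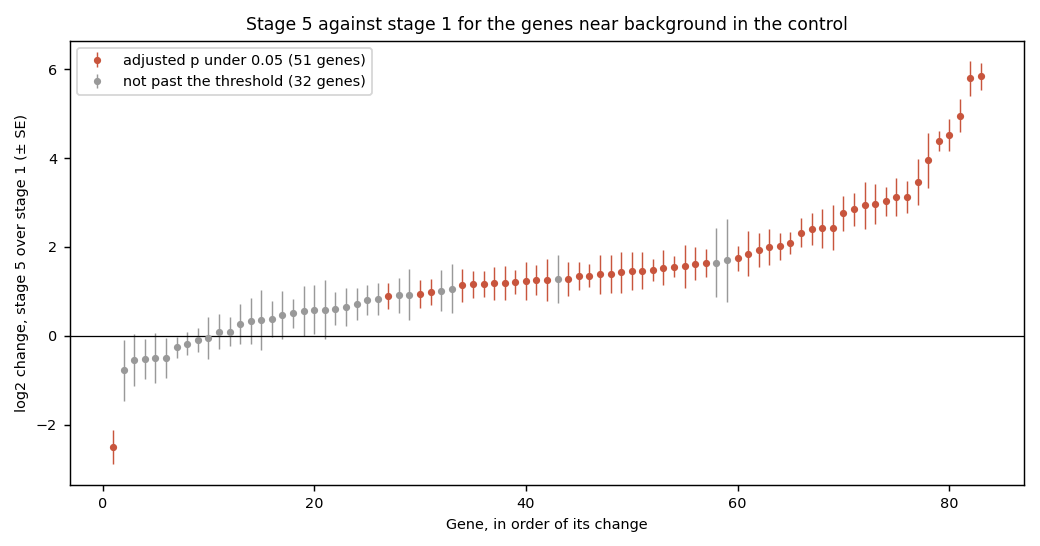
Log2 change of stage 5 over stage 1 with its standard error (vertical axis) for the 83 genes in order of their change (horizontal axis), coloured by whether the change passed an adjusted p of 0.05. Of the 51 genes that passed, 50 lie above 0, up to 5.84, and 1 lies below, at −2.51.

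Some of these changes rested on 1 library of stage 5. For Solyc07g009435 the log2 change of stage 5 over stage 1 was 3.95 ± 0.626 (SE; adjusted p = 0.000422, edgeR) and 2.38 without stage 5 replicate 1. Solyc07g007320 changed by 2.93 ± 0.533 (SE; adjusted p = 0.000998, edgeR), and by 1.44 without that library. Both remained past the threshold. Solyc05g005170 changed by 1.56 ± 0.475 (SE; adjusted p = 0.0189, edgeR), but its call was lost without stage 5 replicate 2 (0.456, adjusted p = 0.365, edgeR) and without stage 1 replicate 2 (1.25, adjusted p = 0.127, edgeR). The call of Solyc03g123670 (0.98 ± 0.285, SE; adjusted p = 0.015, edgeR) was lost without stage 5 replicate 2 or either stage 1 library, with adjusted p-values between 0.0597 and 0.117 (edgeR).

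Among single steps, the one at the crossing of the endodermis held most of the calls. Stage 3 was higher than stage 2 for 13 of the 83 genes (15.7%), with 472 of 18357 genes tested (2.57%) called higher, and it was lower for none (1.17% of all genes tested). The median log2 change of this step was 0.99 over the 83 genes and 0.007 over all genes tested. Both stage 3 libraries lay above both stage 2 libraries for 68 of the 83 genes, and for 28.7% of all genes tested. The largest called steps were those of Solyc02g079440 (3.16 ± 0.601), Solyc11g069280 (3.12 ± 0.287), Solyc11g008560 (2.47 ± 0.344) and Solyc05g014710 (2.35 ± 0.413), as log2 changes with SE. Their adjusted p-values were 0.0229, 0.00197, 0.0079 and 0.0188 (edgeR). Of the 13 genes, 12 were also called higher at stage 5 than at stage 1, as were 50 of the 83. The matching overlap over all genes tested was not computed.

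Shares of all genes called are not given for the fits with a library left out. In those fits the number of calls at this step depended on single libraries. It was 0 without stage 2 replicate 1, 3 without stage 2 replicate 2, 2 without stage 3 replicate 1 and 4 without stage 3 replicate 2, each of which leaves 1 library in a group and takes its spread from the others. It was 22 and 23 without stage 5 replicate 1 and replicate 2, and 20 without either control library.

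The other steps held few calls. Stage 2 against stage 1 and stage 4 against stage 3 gave 1 gene each, both called higher and named above. Of all genes tested, 0.12% and 0.0545% were called higher in these steps, and 0.158% and 0.0327% lower. Stage 5 against stage 4 gave 0 of the 83 genes by edgeR, as it gave 0 of all genes tested (0.0%). At an unadjusted p-value under 0.05 there were 16 of the 83 (19.3%), a share near the 17.6% of all genes tested. DESeq2 called 5, 2 higher and 3 lower, of the 40 of these genes to which it gave an adjusted p (12.5%), and 553 of 11239 genes in all (4.92%). Over the 83 genes the median log2 change was 0.16 at stage 2, 0.27 at stage 4 and 0.08 at stage 5, each set against the stage before it.

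Some of the genes were highest in the middle stages and lower before emergence. A fall was called for a smaller share of the 83 than of all genes tested. The rule barred a return to the control level and so limited falls, so nothing is read from this difference. The contrast of stage 5 with stage 3 was added after these levels had been seen. It called 7 of the 83 genes lower (8.43%, with 10% of all genes tested) and 11 higher (13.3%, with 6.98%). One of the 11, Solyc02g078100, stood at the threshold (0.63, adjusted p = 0.05, edgeR). Its call was lost under 13 of the 19 alternatives. Both stage 5 libraries lay below both stage 3 libraries for 15 of the 83 genes (18.1%), and for 34.8% of all genes tested. The number called, 18 in all, was 5 without stage 3 replicate 2, 10 without stage 3 replicate 1 and 8 without stage 5 replicate 1.

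Solyc01g067540 was the only one of the 83 genes called lower at stage 5 than at stage 1. It had 0.481 and 0 CPM in the control, 30 and 17.9 at stage 1, 25.2 and 25.4 at stage 2, 35.2 and 40.8 at stage 3, 15.3 and 12.2 at stage 4, then 4.71 and 3.08 at stage 5. It was high at stages 1 to 3, and its stage 5 libraries remained above the control. The log2 change was −2.51 ± 0.381 (SE; adjusted p = 0.000316, edgeR) for stage 5 over stage 1 and −3.12 ± 0.379 (SE; adjusted p = 0.00167, edgeR) for stage 5 over stage 3.

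Solyc05g024260 had 0 and 0.379 CPM in the control, 11.5 and 4.82 at stage 1, 15.5 and 20.3 at stage 2, 38.7 and 43.9 at stage 3, 23.8 and 27.3 at stage 4, then 4.46 and 7.19 at stage 5. Its stage 5 and stage 1 libraries overlapped, with stage 3 far above both. The log2 change of stage 5 over stage 3 was −2.81 ± 0.423 (SE; adjusted p = 0.00332, edgeR), and that of stage 5 over stage 1 was not past the threshold (−0.53 ± 0.449, adjusted p = 0.357, edgeR). Solyc02g092490 had 2.17 and 1.89 CPM in the control, 25.7 and 21.1 at stage 1, 21.5 and 27.9 at stage 2, 59.6 and 61.7 at stage 3, 27.1 and 41.5 at stage 4, then 25 and 16.9 at stage 5. It was called higher at stage 3 than at stage 2 (1.32 ± 0.258, SE; adjusted p = 0.0228, edgeR) and lower at stage 5 than at stage 3 (−1.41 ± 0.266, SE; adjusted p = 0.00658, edgeR).

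Solyc06g065870 had 0.481 and 0 CPM in the control, 3.39 and 3.82 at stage 1, 5.51 and 6.76 at stage 2, 5.79 and 12.3 at stage 3, 4.26 and 7.46 at stage 4, then 2.73 and 2.05 at stage 5. It was low throughout, and its stage 3 duplicates stood apart. Its log2 change of −1.77 ± 0.543 (SE; adjusted p = 0.0436, edgeR) for stage 5 over stage 3 was lost under 8 of the 18 alternatives, among them without stage 3 replicate 2 (−1.17, adjusted p = 0.315, edgeR). The other genes lower at stage 5 than at stage 3 were Solyc04g007480, Solyc04g080970 and Solyc12g097060, with log2 changes of −1.4 ± 0.375, −1.36 ± 0.336 and −1.12 ± 0.236 (SE). They are named after their values were seen.

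**Figure D5:**
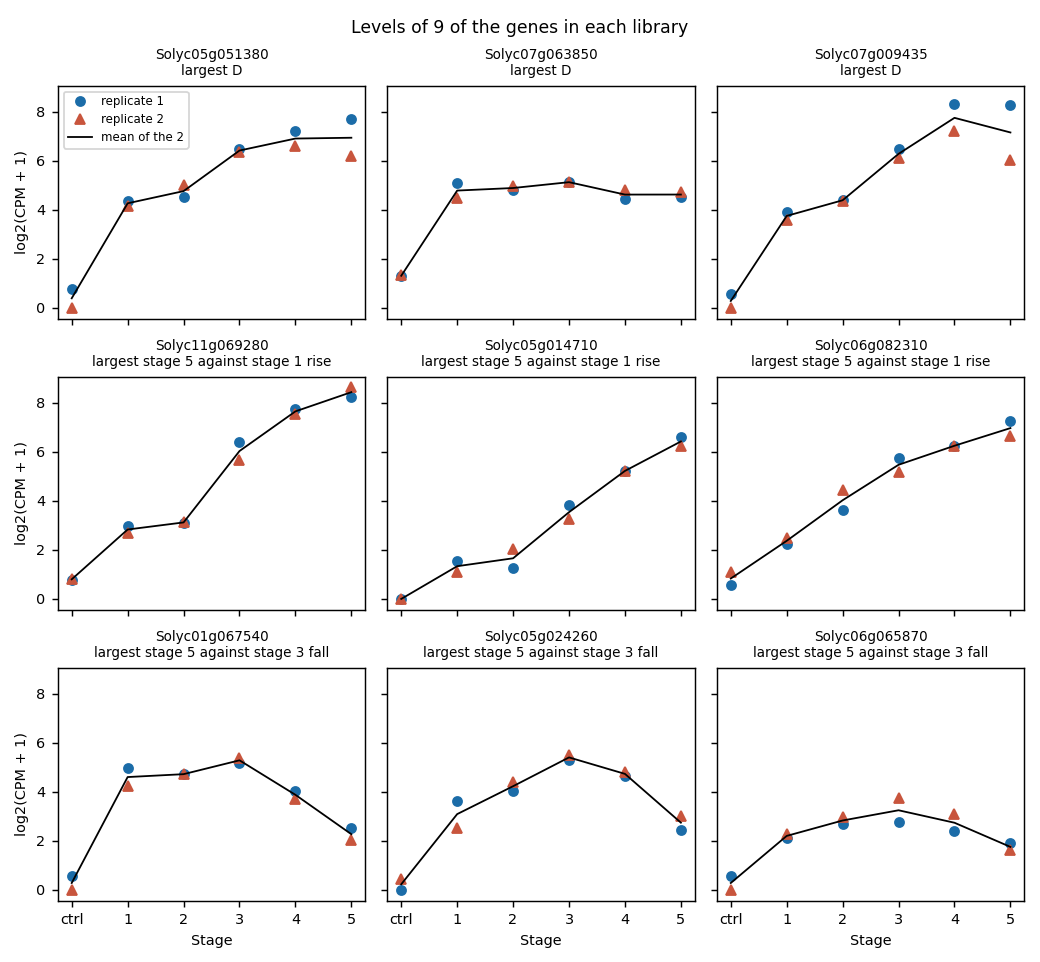
Level as log2(CPM + 1) (vertical axis) by stage (horizontal axis, ctrl for the control) of the 3 genes with the largest D, the 3 with the largest rise of stage 5 over stage 1 and the 3 with the largest fall of stage 5 below stage 3, with a symbol per replicate and a line through the mean of the 2. Solyc07g063850 is flat from stage 1, Solyc11g069280 steps up at stage 3, and Solyc01g067540 declines after stage 3.

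Among the genes higher at stage 5 than at stage 3, Solyc02g082870 had its lowest staged levels at stage 2. It had 0.481 and 0 CPM in the control, 23.6 and 7.64 at stage 1, 3.38 and 4.23 at stage 2, 10.3 and 7.67 at stage 3, 27.1 and 21 at stage 4, then 31.7 and 49.8 at stage 5. The stage 2 libraries lay below both stage 1 libraries and above the control, but the stage 1 duplicates were far apart and the change of stage 2 over stage 1 was not called (−2.13 ± 0.524, adjusted p = 0.178, edgeR). Stage 5 exceeded stage 3 by 2.24 ± 0.472 (log2, SE; adjusted p = 0.0102, edgeR), a call that was lost without stage 3 replicate 2 (adjusted p = 0.103, edgeR). Its change of stage 5 over stage 1 was 1.38 ± 0.446 (SE; adjusted p = 0.0249, edgeR). That change was 2.44 without stage 1 replicate 1, and the call was lost without stage 1 replicate 2 (0.76, adjusted p = 0.157, edgeR) or stage 5 replicate 2 (1.04, adjusted p = 0.13, edgeR). Solyc01g108170 had its lowest staged levels at stage 1, with 0 and 0.379 CPM in the control, 6.13 and 4.98 at stage 1, 6.58 and 11.8 at stage 2, 17.2 and 13.4 at stage 3, 34.3 and 33.1 at stage 4, then 46.4 and 42.6 at stage 5. Its change of stage 5 over stage 3 was 1.63 ± 0.302 (SE; adjusted p = 0.00624, edgeR), and the call was lost without stage 3 replicate 2 (adjusted p = 0.0788, edgeR).

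A set of 17 of the 83 genes passed neither the F test, nor the slope, nor stage 5 against stage 1, although Solyc06g065870, one of them, was called lower at stage 5 than at stage 3. Their highest staged mean was a median of 1.82 times their lowest. The median of their mean level over the stages was 8.9 CPM, and it was 12.4 CPM for the other 66 genes. Solyc04g078460 was one of the 17, with 5.65 and 48.8 CPM in the stage 1 duplicates, the largest gap of that group seen in the set. It is named after its values were seen.

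Duplicates of these genes differed most often at stages 1 and 5. A gap of more than 2-fold, on log2(CPM + 1), was found for 2 of the 83 genes in the control (2.41%, with 12.9% of all genes tested) and for 10 at stage 1 (12%, with 3.72%). It was found for 5 genes at stage 2 (6.02%, with 4.83%), 1 at stage 3 (1.2%, with 4.47%) and 4 at stage 4 (4.82%, with 5.88%). At stage 5 there were 16 such genes (19.3%, with 15.0% of all genes tested). The stage 5 share was near that of all genes tested, and stage 5 replicate 2 was the shallowest library. The rule kept every control value below 3 CPM, where a gap of this size on this scale is hard to reach. The control share is therefore not comparable with that of all genes tested.

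Genes close to the limits of the rule were compared on both sides. The 3 genes with the smallest D, Solyc02g086470, Solyc01g009470 and Solyc05g040040, had values of 1.021, 1.019 and 1.019, and the next 3 outside, Solyc03g080000, Solyc09g007460 and Solyc03g070390, had 0.9977, 0.9977 and 0.9941. Solyc05g040040 had 16.1 and 1.03 CPM at stage 5 and no count in the control, so that its D was set by 1 stage 5 library. Solyc01g009470 also had 1.03 CPM in stage 5 replicate 2 and no control count. Both values lay below the floor of 1.54 CPM in that library, so a rise there is not shown for these genes. On the other limit, Solyc03g005620 and Solyc02g062510 had a highest control level of 2.89 CPM, and Solyc04g008600, just outside, had 3.03 CPM. The limits thus ran through a continuous range of values.

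A further 136 genes had D above 1 over a control of 3 CPM or more. Of these, 108 (79.4%) were called higher at stage 5 than at stage 1 and 1 lower, beside 50 (60.2%) and 1 of the 83 genes. At stage 3 against stage 2, 52 of the 136 (38.2%) were called higher, beside 13 (15.7%) of the 83. The median log2 changes of stage 5 over stage 1 were 1.26 for the 83 genes and 1.21 for the 136. Those of stage 3 over stage 2 were 0.99 for the 83 and 0.87 for the 136, so the smaller share of calls did not go with a smaller median change. The difference between the sets was not tested.

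Beyond their levels the 83 genes shared little that the table could show. Some counts were fractional for 11 of them (13.3%), beside 16.7% of all genes tested. No pair of the genes stood on neighbouring rows when the table was sorted by tag, and 2 pairs stood within 5 rows of each other. These were Solyc02g082870 with Solyc02g082920, and Solyc12g088470 with Solyc12g088520. Both Solyc12g genes had fractional counts, so reads may be divided between similar genes there. The tags beginning Solyc02g were the most frequent, with 14 of the 83 genes (16.9%), beside 10.6% of all genes tested.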

How the data were processed

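RNA was measured in 12 libraries. The kit was QuantSeq for 3′ ends, per the labels' protocols, so counts were not divided by length. The authors deposited estimated counts per gene; the submitters' processing notes name Salmon 1.3.0 and DESeq2 without a role. Genome build, annotation and strand setting are not given in the sources used here. Of the values, 5.64% were not whole, and counts were rounded before tests. CPM values given for genes use the column totals, as the rule does; no columns were left out.

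Genes were kept with edgeR's filterByExpr by group (18357 genes; 18336 for the slope), scaled by TMM and tested by quasi-likelihood in edgeR 4.0.16 (R 4.3.3 with limma 3.58.1). One model of group over all 12 libraries gave the contrasts between stages (6 residual degrees of freedom). The slope used the 10 staged libraries (8 degrees of freedom). p-values were adjusted by Benjamini-Hochberg over all genes, with a threshold of 0.05. The standard error was the log2 change divided by the square root of F. DESeq2 1.42.0 was an alternative. Ratios to the control used pooled counts with exact 95% binomial intervals. The fits were tested on simulated data. Chi-square per degree of freedom between duplicates was 6.61 to 13.6, so no pair was taken for copies of 1 library.

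The members, lists and tests were chosen with earlier results of these data known. Named genes were the 10 largest D, up to 8 called per direction for stage 5 against stage 1, up to 4 per direction for each single stage contrast, and the 3 genes on each side of the limit of D. Lists by function and marker lists could not be applied, because the reference table holds no Solyc tags. Alternatives were other scalings, filters and tests, the replicate block, and leaving out each library.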

Additional observations from a re-analysis of the deposited data

Results flagged for a closer look

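Levels differed between sections of different stages for part of the 83 genes, as tested by contrasting the stages directly (edgeR, adjusted p-value under 0.05). Stage 5 differed from stage 1 for 51 genes (61.4%, with 44.4% of all genes tested), with 50 higher and 1 lower, the last being Solyc01g067540. Stage 5 differed from stage 3 for 18 genes (21.7%, with 17% of all genes tested), with 11 higher and 7 lower. The second contrast was added after the levels were seen. With 2 libraries per group no library could be tested as standing apart from its group.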

How the results depend on the processing

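The list itself depended on its limits and on the control libraries. It held 45 genes with a control ceiling of 1 CPM and 131 with a pseudocount of 0.5, and between 83 and 200 with 1 library left out. Leaving out a library cannot lower D, so the direction of this growth was fixed in advance. The 200 came without control replicate 1, at the limit of the rule and with 61 of the 83 genes among them. Genes of the 83 missing there still met the rule and were left out by rank. Without control replicate 2 there were 144. TMM-scaled sizes gave 96 genes and DESeq2 size factors 87. Counts for stage 5 against stage 1, for the slope and for the F test stayed within 1.5 times under every alternative run, with ranges of 35 to 53, 50 to 68 and 43 to 65. The steps moved more. Without a filter on low counts the steps into stages 2, 3, 4 and 5 from the stage before had 6, 36, 8 and 8 genes. For the alternatives, the share of all genes called is given only for DESeq2 at stage 5 against stage 4. Changes in the counts of this paragraph are therefore not read as gains or losses among the 83. DESeq2 gave 3 into stage 2, 3 into stage 4 and 5 into stage 5, and the 10 staged libraries alone gave 4 for the last. With 1 library left out the counts ran from 0 to 1, 0 to 23, 0 to 1 and 0 to 4 for the 4 steps in order, and from 5 to 23 for stage 5 against stage 3. The causes were not tested. Of 730 values of named genes under alternatives, 71 lost the call and 0 changed sign. With the replicate block, 50 genes were called for stage 5 against stage 1, 55 for the slope, 57 for the F test, 20 for stage 5 against stage 3, and 1, 15, 1 and 0 for the 4 steps. The labels do not say that a replicate number marks a shared preparation. Differences between replicates correlated between groups by 0.0485 on average, from −0.0875 to 0.228, with 5 of 15 pairs above 0.1, so the numbers were not taken to pair the libraries. Leaving out control libraries from the stage contrasts, and the contrast of stage 5 with stage 3, were added after seeing the data. Depth was lowest in stage 5 replicate 2, without which the list held 91 genes.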
